A study of Mus musculus with 4 samples.

Results

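The CBX, PHC and RING subunits of canonical Polycomb repressive complex 1 (PRC1) were read across the arrays of a Bmi1 and Mel18 deletion experiment. The members are Cbx2, Cbx6, Cbx7, Cbx8, Phc1, Phc2, Phc3, Ring1 and Rnf2. They were found by the platform's gene symbol, which gave 20 probe sets for 9 genes out of 18193 genes on the array. Affymetrix arrays were hybridised with total RNA of colonic epithelial cells, 1 array for each of 4 genotypes: deletion of Bmi1 in intestinal epithelium (Bmi1ΔIEC), deletion of Mel18 there (Mel18ΔIEC), deletion of both (Bmi1ΔIEC Mel18ΔIEC, labelled DKO), and wild type. All mice were C57BL/6, between 6 and 8 weeks old and sex-matched, and all genotypes, wild type included, had been given azoxymethane at 10 mg/kg, a colon carcinogen, and 5 days later 3.5% dextran sulfate sodium for 5 days, which injures the colon lining. Cells were shaken off the colon with EDTA on day 12, with no sorting step in the protocol. Neither what drives the deletions nor how many mice stand behind an array is clear from the labels.

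PRC1 is a chromatin complex that places ubiquitin on a lysine of histone H2A and helps to keep developmental regulators and the Cdkn2a locus silent. Its catalytic core pairs a RING ligase, Ring1 or Rnf2 (also called Ring1A and Ring1B), with a PCGF partner, and in canonical PRC1 that partner is Bmi1 or Mel18, the proteins targeted here. A CBX subunit then binds the histone H3 mark left by PRC2, and a PHC subunit polymerises through its SAM domain and compacts the bound chromatin. In mouse intestine, Ring1 and Rnf2 are known to sustain stem cells.

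Each genotype has 1 array, so no value has a replicate check, no p-value is given, and precision is limited by the number of arrays. Intensities are RMA values in arbitrary units, comparable between arrays for one probe set but not between probe sets. The arrays' medians lay between 32.1 and 34.2. A gene is represented by its brightest probe set, and a floor was set at the median of all values, 33.4 units. The targeted genes do not check the labels: the brighter Bmi1 probe set by wild-type level read 334, 160 and 432 on the Bmi1ΔIEC, Mel18ΔIEC and DKO arrays against 116 in wild type, and the brighter Pcgf2 (Mel18) probe set read 33.4, 39.8 and 32.0 against 30.2. Where the deletions lie relative to these probes is not stated, so the levels say nothing about the deletions, and each array bears the name of its label and no more than that. As a check of the labelled cell type, Epcam, an epithelial adhesion molecule, read 10013, 9819 and 10481 units on the 3 knockout arrays in that order and 10930 in wild type.

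The 9 subunits differed between the arrays about as much as other genes. Their median range was 0.52 on the log2 scale, against 0.53 for all genes reaching the floor. One of the subunits, Cbx8, was at least 2-fold from wild type on any knockout array, by a log2 difference of 1.13 on the Mel18ΔIEC array. Of all genes, 8.68%, 5.68% and 4.34% were on the Bmi1ΔIEC, Mel18ΔIEC and DKO arrays. A set of 7 subunits (Ring1, Rnf2, Cbx2, Cbx7, Cbx8, Phc1 and Phc3) were somewhat brighter on both single-knockout arrays than on both others, an order that 40.5% of all genes shared, while Cbx6 and Phc2 were not. For Phc3 the DKO array differed from the Mel18ΔIEC one by only -0.05. Phc3 lost the order with quantile normalization and with each array centred on the genes reaching the floor. The DKO array lay close to wild type, with differences between -0.24 and 0.12 for every subunit but Cbx8. All 9 reached the floor on at least 1 array, 8 of them on all 4 arrays, and Cbx8 lay under it in wild type.

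**Figure D1:**
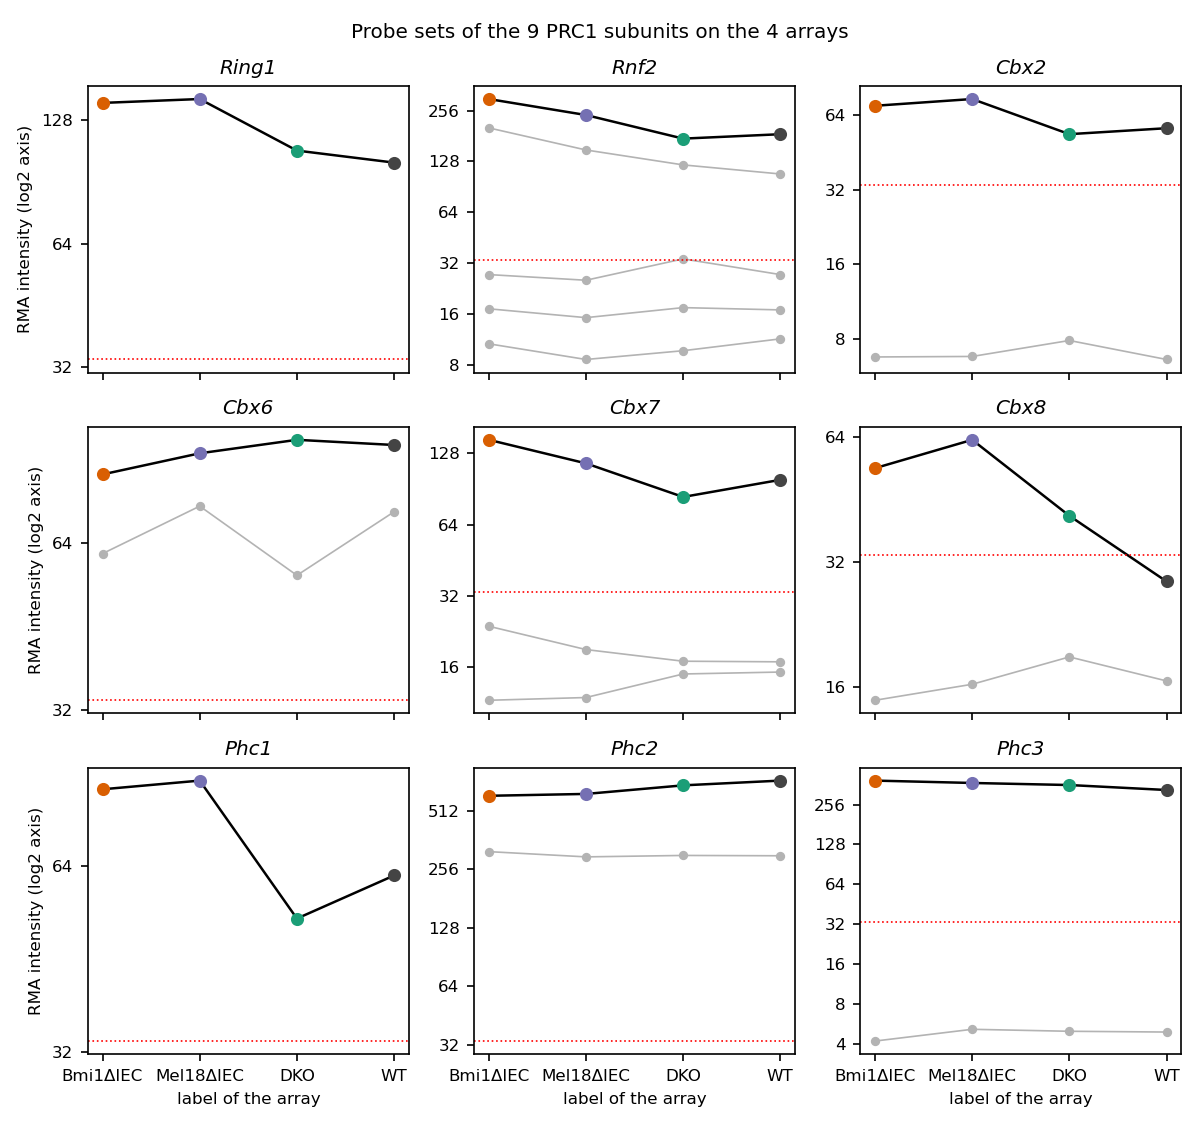
RMA intensity (vertical, log2 axis, separate scale in each panel) of the 20 probe sets of the 9 subunits on the 4 arrays (horizontal). Black lines with coloured points are each gene's brightest probe set, grey lines its other probe sets, lines only join values of one probe set, and the red dotted line is the floor of 33.4. Ring1, Rnf2, Cbx2, Cbx7, Cbx8 and Phc1 sit higher on the Bmi1ΔIEC and Mel18ΔIEC arrays than on the DKO and wild-type arrays.

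Both RING ligases were brighter on the single-knockout arrays. Ring1, with 1 probe set, read 141 units on the Bmi1ΔIEC, 144 on the Mel18ΔIEC and 108 on the DKO array, against 101 in wild type. The log2 differences from wild type were 0.48, 0.52 and 0.10. Rnf2, the ligase that carries most of the H2A ubiquitination in mouse embryonic stem cells, read 299, 241 and 174 in the same order, against 185 in wild type, which is 0.69, 0.38 and -0.09 on the log2 scale. The Bmi1ΔIEC array was the highest for Rnf2, 0.31 above the Mel18ΔIEC one. Of the 5 Rnf2 probe sets a further one was well over the floor, and it read 202, 149 and 122 against 108 in wild type, again highest on the Bmi1ΔIEC array. The other 3 lay at or under 33.8 on every array and their differences from wild type ran from -0.41 to 0.31.

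Among the CBX subunits, which decide where canonical PRC1 binds, Cbx8 and Cbx7 differed most and Cbx6 least. Cbx8, a repressor of the Ink4a/Arf locus in fibroblasts, read 53.8 on the Bmi1ΔIEC, 63.0 on the Mel18ΔIEC and 41.4 on the DKO array, against 28.7 in wild type. It was higher than wild type by 0.91, 1.13 and 0.52, the only member brighter by more than 0.5 on the DKO array. Since the wild-type value lay under the floor, the Mel18ΔIEC value can also be set against the floor itself, of which it was 1.89-fold, a log2 value of 0.92 and under the 2-fold rule. The other Cbx8 probe set stayed between 14.9 and 18.9 on all arrays and did not show the difference.

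Cbx7, a CBX protein of adult and stem cells that also binds RNA, read 146, 116 and 83.7 units on the Bmi1ΔIEC, Mel18ΔIEC and DKO arrays, against 98.9 in wild type. Its log2 differences were 0.56, 0.23 and -0.24, so it was highest on the Bmi1ΔIEC array and lowest on the DKO one. Its other 2 probe sets lay under the floor on every array and disagreed. In the same order, 1 differed from wild type by 0.50, 0.17 and 0.01, and the other by -0.40, -0.36 and -0.03. Cbx2, whose long disordered region compacts nucleosomes, read 70.0, 74.5 and 53.7 against 56.8 in wild type (0.30, 0.39 and -0.08). Its second probe set did not exceed 7.88. Cbx6 read 85.3, 93.1 and 98.5 against 96.4 in wild type (-0.18, -0.05 and 0.03), the reverse order of Cbx7 with these probe sets. The second Cbx6 probe set, also over the floor, read 61.4, 74.7 and 56.1 against 73.0, so the probe sets disagreed on the DKO array by 0.03 against -0.38. In the current gene table, Cbx2 and Cbx8 are neighbours on chromosome 11 with 0 protein-coding genes between them, and Cbx6 and Cbx7 lie on chromosome 15 with 1 between them. Cbx2 and Cbx8 were both brightest on the Mel18ΔIEC array and then the Bmi1ΔIEC array, and Cbx8 but not Cbx2 was brighter than wild type on the DKO array.

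Of the polyhomeotic subunits, Phc1 was lower on the DKO array than on either single-knockout array, and Phc2 and Phc3 stayed within 0.26 of wild type. Phc1, highly expressed in embryonic stem cells, read 85.0, 87.8 and 52.6 on the Bmi1ΔIEC, Mel18ΔIEC and DKO arrays, against 61.7 in wild type. That is 0.46, 0.51 and -0.23 on the log2 scale, the single-knockout arrays lying close together and above both others. Phc2, whose SAM domain clusters PRC1 in mouse nuclei, read 612, 626 and 693 against 733 in wild type with its brighter probe set (-0.26, -0.23 and -0.08), and 316, 297 and 302 against 300.4 with the other (0.07, -0.02 and 0.01). Phc3 read 388, 372 and 359 against 330 in wild type (0.24, 0.18 and 0.12), and its second probe set was at 5.18 or less on every array. Over all 9 subunits, the median range across the 4 arrays was 0.52 on the log2 scale, against 0.53 for the 12156 genes at or above the floor. A range of 2-fold or more was found for 1 of 9 subunits and for 18.3% of those genes.

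Against wild type, few subunits passed the 2-fold rule. On the Bmi1ΔIEC array 0 of 9 were at least 2-fold higher and 0 lower, where 5.78% and 2.9% of the 11934 genes tested were. On the Mel18ΔIEC array 1 of 9 was higher, Cbx8, and 0 lower, where 3.16% and 2.52% of all genes were. On the DKO array 0 were higher and 0 lower, where 2.13% and 2.2% of all genes were. Cbx8 no longer counted with each array centred on its expressed genes, those reaching the floor (0.97), with an offset of 16 units added before log2 (0.82), with the mean over its probe sets (0.55), or with the floor at percentile 75.

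The smaller differences were mostly above 0 on the single-knockout arrays and mixed on the DKO array. The median over the 9 subunits was 0.46 on the Bmi1ΔIEC array, against 0.13 over all genes tested, and 7 subunits lay above 0, as did 60.0% of all genes. On the Mel18ΔIEC array the median was 0.38 against 0.07, with 7 above 0 and 57.9% of all genes. On the DKO array it was -0.08 against -0.01, with 4 above 0 and 47.8% of all genes. These 3 comparisons share the wild-type array, so their likeness is not given as a result. With the mean over probe sets, fewer members reached the floor, and the medians on the single-knockout arrays were 0.22 over 7 members and 0.079 over 6, against 0.10 and 0.06 over all genes.

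**Figure D2:**
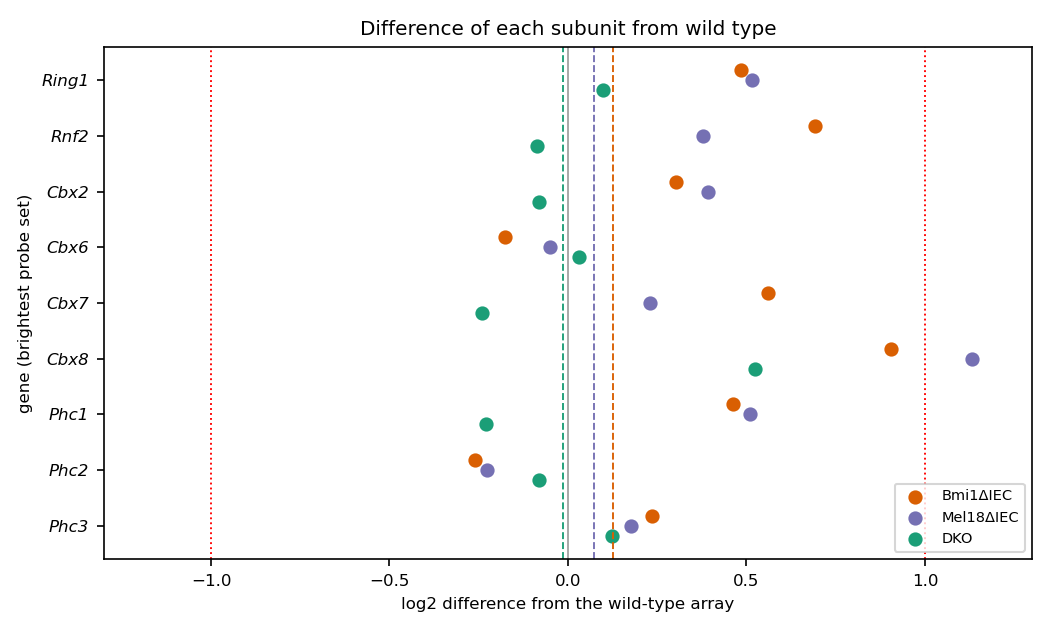
Log2 difference of each of the 9 subunits (rows, brightest probe set) from the wild-type array for the Bmi1ΔIEC, Mel18ΔIEC and DKO arrays. Dashed lines are the medians over all genes tested (0.13, 0.07 and -0.01), red dotted lines mark 2-fold. One point lies past 2-fold, Cbx8 on the Mel18ΔIEC array at 1.13.

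The double knockout was also set against each single knockout, which differ from it, by their labels, in the second deletion. Against the Bmi1ΔIEC array, 0 of 9 subunits were at least 2-fold higher and 0 lower on the DKO array, where 4.36% and 8.01% of all genes were. Of the subunits 2 lay above 0, where 39.6% of all genes did, and 7 below, the most for Cbx7 at -0.80, Rnf2 at -0.78 and Phc1 at -0.69. Against the Mel18ΔIEC array, again 0 were higher and 0 lower, where 3.9% and 4.55% of all genes were, and 2 lay above 0, where 40.6% of all genes did. The lowest were Phc1 at -0.74 and Cbx8 at -0.61. The median over the subunits was -0.38 and -0.46 in these 2 comparisons, against -0.14 and -0.09 over all genes.

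For several subunits the DKO array lay under the sum of the single-knockout differences. A non-additive term was formed by adding the DKO and wild-type log2 values and subtracting both single-knockout ones, so 0 means that the log2 differences add and a negative term that the DKO array lies under their sum. It was -1.51 for Cbx8, -1.20 for Phc1, -1.16 for Rnf2 and -1.03 for Cbx7, and just short of the size of 1 for Ring1 at -0.90. Cbx2 had -0.77, Phc3 -0.29, Cbx6 0.26 and Phc2 0.41. A term of -1 or lower was thus found for 4 of 9 subunits, beside 18.7% of all genes, and a term of 1 or higher for 0, beside 8.77%. The median was -0.90 for the subunits and -0.21 for all genes. Both single-knockout arrays lay above both others for 7 of 9 subunits, an order shared by 40.5% of all genes. The share of all genes depended on the scaling, and with arrays centred on their expressed genes it was 23.4%, beside 6 of 9 subunits. With the mean over probe sets it was 39.4%, beside 3 of 7 (Cbx7, Phc1 and Ring1). Phc1 and Ring1 have 1 probe set each, so that mean cannot change their values. The term rests on all 4 arrays and on their scaling: with each array centred on its expressed genes, those reaching the floor, 1 subunit (Cbx8) kept a term of -1 or lower, beside 9.83% of all genes. With the mean over probe sets, Phc1 alone did.

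**Figure D3:**
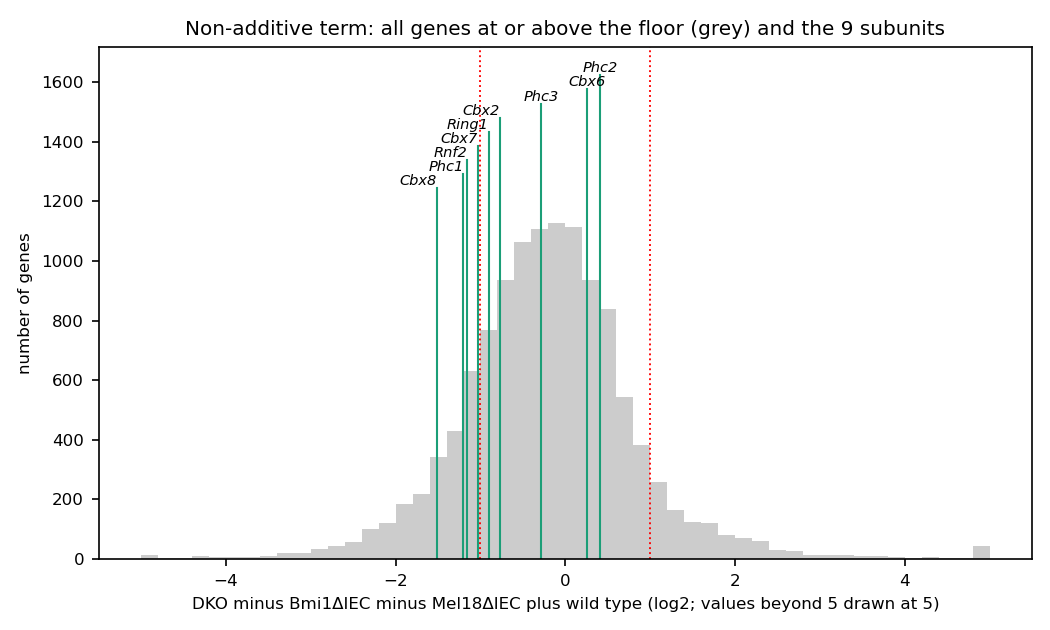
Histogram of the non-additive term (horizontal, log2; DKO minus Bmi1ΔIEC minus Mel18ΔIEC plus wild type) for the 12156 genes at or above the floor (vertical, number of genes), with green lines at the 9 subunits and red dotted lines at -1 and 1. Cbx8, Phc1, Rnf2 and Cbx7 lie past -1 and none lies past 1.

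The promoters of these 4 subunits are shown because their terms were the lowest. RefSeq windows of build GRCm38.p6, from 250 bases before to 50 after the annotated start, were matched by symbol for 8 of the 9 members. They are given 5′ to 3′ on the gene's strand, with CpG dinucleotides in capitals, for Rnf2 at chr1:151500942-151501241, Cbx7 at chr15:79932597-79932896, Cbx8 at chr11:119040864-119041163 and Phc1 at chr6:122340178-122340477, all on the minus strand.
Rnf2: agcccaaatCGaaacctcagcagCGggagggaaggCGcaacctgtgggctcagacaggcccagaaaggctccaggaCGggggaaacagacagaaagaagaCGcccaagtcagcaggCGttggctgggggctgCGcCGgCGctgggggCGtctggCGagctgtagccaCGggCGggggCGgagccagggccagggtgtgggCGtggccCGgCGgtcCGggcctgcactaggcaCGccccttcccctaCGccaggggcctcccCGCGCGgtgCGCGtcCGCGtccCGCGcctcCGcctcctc
Cbx7: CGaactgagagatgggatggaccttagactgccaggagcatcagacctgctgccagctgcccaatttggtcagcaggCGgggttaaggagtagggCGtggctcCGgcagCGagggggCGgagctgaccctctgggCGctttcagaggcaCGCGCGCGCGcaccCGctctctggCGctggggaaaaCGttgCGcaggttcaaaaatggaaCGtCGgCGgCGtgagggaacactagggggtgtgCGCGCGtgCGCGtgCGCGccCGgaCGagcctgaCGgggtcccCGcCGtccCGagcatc
Cbx8: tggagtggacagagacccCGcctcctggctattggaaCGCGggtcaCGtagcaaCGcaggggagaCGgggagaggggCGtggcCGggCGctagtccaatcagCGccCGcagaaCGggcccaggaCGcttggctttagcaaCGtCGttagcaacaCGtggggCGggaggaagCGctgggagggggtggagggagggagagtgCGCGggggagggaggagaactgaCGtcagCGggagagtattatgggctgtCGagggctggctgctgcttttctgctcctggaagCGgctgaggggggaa
Phc1: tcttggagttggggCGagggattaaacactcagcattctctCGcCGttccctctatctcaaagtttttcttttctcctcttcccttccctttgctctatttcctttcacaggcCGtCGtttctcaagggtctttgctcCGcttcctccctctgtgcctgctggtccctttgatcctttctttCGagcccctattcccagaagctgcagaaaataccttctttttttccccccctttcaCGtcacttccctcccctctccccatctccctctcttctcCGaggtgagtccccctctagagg
The windows differ in CpG content, with 30 CpG for Rnf2, 33 for Cbx7, 24 for Cbx8 and 9 for Phc1, against a median of 7 over 32851 windows of the same length. The Cbx7, Rnf2 and Cbx8 windows held more CpG than 91.4%, 88.3% and 80.0% of windows and that of Phc1 more than 54.2%, so the genes with the lowest terms do not share one CpG level. Of the 10 windows of all members, 0 held TTTGGCGC and 0 held TTTCCCGC on either strand, 2 forms of the E2F motif found in 0.514% and 1.07% of all windows, which says only that these letters are not in these windows.

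Other PRC1 genes were read in the same way. Variant PRC1 mostly uses other PCGF proteins and none of the CBX subunits read here. Among its 22 measured subunits, 2 were at least 2-fold higher and 0 lower on the Bmi1ΔIEC array, with a median of 0.21. On the Mel18ΔIEC array 1 was higher and 0 lower (median 0.02), and on the DKO array 0 were higher and 1 lower (median -0.10). Auts2, a partner of Pcgf3 and Pcgf5 complexes, read 201, 195 and 86.6 on the Bmi1ΔIEC, Mel18ΔIEC and DKO arrays against 90.5 in wild type. Pcgf1, which defines the complex with Kdm2b and Bcor, read 69.4, 57.8 and 32.2 against 30.2, the last 2 values under the floor. Kdm2b, which recruits that complex to unmethylated CpG islands, read 468, 265 and 166 against 354, the one variant subunit past 2-fold lower, at -1.09 on the DKO array. A non-additive term of -1 or lower was found for 6 of the 22, beside 18.7% of all genes.

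Of canonical partners, Bmi1 itself was past 2-fold on the Bmi1ΔIEC array (1.53) and the DKO array (1.90), and Scmh1, a SAM-domain protein that joins PRC1, stayed within 0.13 of wild type. None of the 11 PRC2 subunits, the 6 genes of H2A deubiquitination or the 3 heterochromatin protein 1 paralogs (Cbx1, Cbx3 and Cbx5, of heterochromatin; Cbx3 probe sets shared with a pseudogene were left out) passed 2-fold in the 3 comparisons with wild type. Medians of the PRC2 list were 0.23, 0.12 and -0.12 in the order Bmi1, Mel18 and double knockout, and Ezh2 (-1.07) and Eed (-1.06) had non-additive terms past -1. The deubiquitination list had medians of 0.06, 0.07 and 0.01 and 0 terms past 1 in size, so the eraser genes of the PRC1 mark differed little throughout. The heterochromatin protein 1 medians were 0.30, -0.06 and -0.22, from 3 genes.

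For the 3 subunits with the widest range, the nearest profiles over the 4 arrays were sought by root mean square difference of mean-centred log2 values. Next to Cbx8 lay Klk1 (0.02), Map4k5 (0.03) and Zfyve21 (0.04), and 30 genes of 11642 lay within 0.1. Next to Cbx7 were Ears2, Heatr3 and Prr3, all within 0.02, with 528 genes within 0.1. Next to Rnf2 were Rnf113a1, Dhx33 and Sox21, all within 0.03, with 517 genes within 0.1, so with 4 arrays a like profile is common for Cbx7 and Rnf2.

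Marker lists of other cells and of division also differed between the arrays. The summed intensity of 11 neutrophil markers was 279.9 on the Bmi1ΔIEC, 368 on the Mel18ΔIEC and 2178 on the DKO array, against 2324 in wild type. Most of the wild-type sum came from S100a8 (935), S100a9 (762) and Ltf (384), while Elane read 28.4, 31.1 and 34.4 against 29.7. The sum of 14 macrophage markers was 2803, 2617 and 4557 against 4363, and that of 10 T cell markers 577, 450.3 and 1602 against 802. Gzma (683) and Gzmb (312) gave most of the T cell sum on the DKO array. Cd14 gave most of the macrophage sum on the Bmi1ΔIEC array, at 1549 against 1199 in wild type. By the 2-fold rule, 3 of 6 neutrophil, 9 of 12 macrophage and 1 of 7 T cell markers that reached the floor were lower than wild type on the Bmi1ΔIEC array, and 3 of 6, 3 of 12 and 2 of 7 on the Mel18ΔIEC array. Thus the sums of these lists were lower on the arrays where 7 subunits were brighter, though not every listed marker was. Mpo, a peroxidase of neutrophil granules, did not exceed 13.6 on any array. Fibroblast markers (11 genes) summed to 1978, 4318 and 6497 against 4190, lowest on the Bmi1ΔIEC array. Epithelial markers (12 genes) summed to 81076, 84980 and 97401 against 93199, and 1 of 12, Krt20, a keratin of mature colonocytes, was 2-fold lower on the Bmi1ΔIEC array (-1.29). Vil1, the brush border villin, differed there by -0.52.

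Proliferation genes (24 measured) summed to 7969, 6118 and 3835 against 8763 in wild type, highest in wild type and lowest on the DKO array. Their median non-additive term was -0.67, beside -0.90 for the subunits and -0.21 for all genes. By the 2-fold rule 1, 3 and 15 of the 23 that reached the floor were lower on the Bmi1ΔIEC, Mel18ΔIEC and DKO arrays and 0 were higher, with medians of -0.05, -0.42 and -1.26. B and plasma cell, smooth muscle, endothelial, and enteric neuron and glia lists had 0 members lower by the 2-fold rule on any knockout array, but Jchain (1.09) and Ighm (1.29), both of plasma cell immunoglobulin, were higher on the DKO array and Vwf (1.08), an endothelial clotting factor, on the Bmi1ΔIEC array. The smooth muscle median was -0.54 on the Bmi1ΔIEC array. Of the T cell markers 3 of 8 were higher on the DKO array. Across the lists, no listed marker was at 0, the lowest reading 5.38. Their part in the subunits' differences was not tested, and fewer cells of a type cannot be told apart from less RNA per cell in such preparations. Housekeeping genes (12 measured) had medians of 0.26, 0.17 and -0.05. Over the 3 knockout arrays these ran in the same order as the medians of all genes, 0.13, 0.07 and -0.01. The medians of the subunits, of the PRC2 list and of the proliferation genes did so too.

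**Figure D4:**
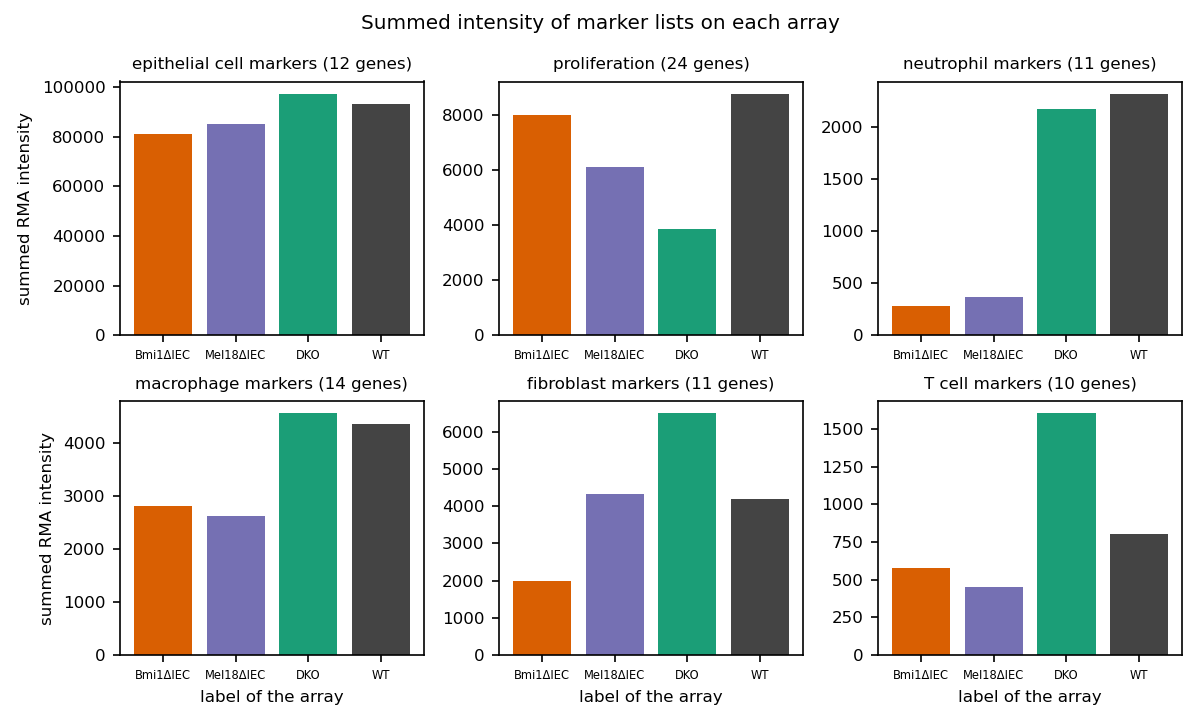
Summed RMA intensity (vertical, from 0, separate scale in each panel) of 6 marker lists on each array (horizontal; WT is wild type), 1 bar an array. Neutrophil sums are 279.9 and 368 on the Bmi1ΔIEC and Mel18ΔIEC arrays, against 2178 and 2324 on the DKO and wild-type arrays, and the proliferation sum is lowest on the DKO array at 3835.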

How the data were processed

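Total RNA (200 ng per array) of 4 samples was measured on Affymetrix mouse arrays. The authors used RMA in Affymetrix Expression Console to make the deposited intensities, per the submitters' processing notes, which name no version and do not tell if the arrays were processed as one set. RMA values are background-corrected and normalized between arrays, which compresses differences of dim probe sets. The table holds 45037 probe sets on a linear scale, and log2 was taken without an offset. The platform annotation gave 1 gene symbol to 34945 of them and several to 932, and 9160 stay unnamed here. Symbols were updated through 34741 gene identifiers that matched the GRCm38.p6 gene table. The brightest probe set by mean intensity stood for its gene. A gene was tested in a comparison where either array reached the floor, and counted at 2-fold (log2 of 1) or more. No test across arrays was made, since with 1 array a genotype the only error an additive fit could use is the non-additive term itself. Samples were grouped by the genotype label.

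The members and the gene lists were chosen with earlier results of these data known. Genes named were every member, the targeted genes, some list members past 2-fold (at most 4 a list), and the 3 nearest profiles of the 3 members with the widest range. Other list members past 2-fold, among them all those of the proliferation and fibroblast lists, are not named. The remaining genes named, such as Ezh2, Eed, Scmh1, Epcam, Vil1, Mpo, Elane and Cd14, were chosen after their values were seen. So were the non-additive term and the order of the arrays. Alternatives were the mean over probe sets, leaving out probe sets of types _s_at and _x_at, no floor, a floor at percentile 75, 2 centrings, quantile normalization, an offset of 16 units and a 1.5-fold rule. Python 3.11.15, pandas 2.3.3 and numpy 2.4.6 were used.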

Additional observations from a re-analysis of the deposited data

Results flagged for a closer look

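A group of 4 subunits was flagged by a non-additive term of at least 1 in size. For them, adding the same labelled deletion, Bmi1 or Mel18, also went with opposite signs on 2 backgrounds. The terms were -1.51 for Cbx8, -1.20 for Phc1, -1.16 for Rnf2 and -1.03 for Cbx7. For Rnf2, the Bmi1ΔIEC array was 0.69 above wild type, while the DKO array was 0.46 below the Mel18ΔIEC one (log2 difference -0.46). With 1 array for each genotype the difference between backgrounds was not tested, and 18.7% of all genes had a term of -1 or lower. The share of all genes that also had the opposite signs was not computed. With expressed-gene centring 1 member, Cbx8, kept a term of -1 or lower, beside 9.83% of all genes. The wild-type value of Cbx8 lay under the floor, and its other probe set, under the floor on every array, had a term of 0.37.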

How the results depend on the processing

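No paired analysis was possible because each genotype has 1 array, and for the same reason no replicate could be left out. The counts against wild type were 0, 1 and 0 members on the Bmi1ΔIEC, Mel18ΔIEC and DKO arrays. The Mel18ΔIEC count was 0 with the mean over probe sets, with the floor at percentile 75, with expressed-gene centring and with the offset. Under the 1.5-fold rule 2 of 9 members (Cbx8 and Rnf2) counted on the Bmi1ΔIEC array, beside 25.4% of all genes. For the double knockout 3 counted against Bmi1, beside 31.4%, and 2 against Mel18, beside 22.9%. The member medians moved to 0.22 (Bmi1) and 0.079 (Mel18) with the mean over probe sets, and to 0.23 and 0.22 with expressed-gene centring. The Mel18 one moved to 0.28, over 4 members, with the floor at percentile 75. The number of members with a non-additive term of -1 or lower, 4 as deposited, was 1 with the mean over probe sets, 2 with the floor at percentile 75, 1 with expressed-gene centring, 2 with quantile normalization and 2 with the offset. The median term was -0.30 with the mean over probe sets, against -0.17 over all genes. With expressed-gene centring it was -0.51 against 0.20, and with the offset -0.80 against -0.19. With arrays centred on their medians it was -1.05 against -0.36. Both single-knockout arrays lay above both others for 3 of 7 members with the mean over probe sets, beside 39.4% of all genes. With the floor at percentile 75 they did so for 4 of 5, beside 46.0%. These alternatives for the non-additive term and the order of the arrays were chosen after seeing the data. With expressed-gene centring the median of all genes on the Bmi1ΔIEC array was -0.12, against 0.13 as deposited, and 349 genes were past 2-fold higher and 565 lower, against 690 and 346. On the Mel18ΔIEC array these counts were 236 and 408, against 375 and 299. On the DKO array against the Bmi1ΔIEC array 829 were higher and 524 lower, against 522 and 959 as deposited, and against the Mel18ΔIEC array 619 and 369, against 463 and 541. Relative to all genes the member medians hardly moved under that centring, at 0.35 and 0.31 against 0.34 and 0.30 as deposited, but fell to 0.12 and 0.018 with the mean over probe sets, and the Mel18 one to 0.17 with the floor at percentile 75. Cbx6, Phc2 and the dim probe sets limit any statement on single members, since probe sets of 1 gene disagreed there.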
